A study of Mus musculus with 18 samples.

Results

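The 9 genes described here are a fixed list of mouse genes tied to Parkinson disease, together with members of the synuclein family: Sncb, Sncg, Uchl1, Pink1, Park7, Fbxo7, Lrrk2, Vps35 and Atp13a2. They were taken by symbol from the 55270 genes of the deposited table. All 9 were found, and all 9 passed the filter on low values that left 19443 genes for testing. Their messenger RNA was measured in 18 poly-A libraries of mouse substantia nigra, 1 library per mouse and 6 mice per group. The intact group was labelled wild type and got no virus. The AAV-GFP group had an adeno-associated virus (AAV) that overexpresses green fluorescent protein, and the AAV-SIRT3 group had one that overexpresses SIRT3, a mitochondrial deacetylase. RNA was taken at 3 months of age, which for the virus groups was a month after the AAV. The strain, sex and virus serotype, the promoter that drives the transgene and the cells it reaches are not given in the sources used here. The study was set up to find which transcripts change in a nigra that overexpresses SIRT3.

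The substantia nigra of the midbrain holds the dopaminergic neurons that are lost in Parkinson disease. Inherited forms of the disease point to a few cellular routes: synaptic vesicle handling, removal of damaged mitochondria, ubiquitin-dependent protein turnover, and traffic between endosomes and lysosomes. Synucleins are small presynaptic proteins that bind vesicle membranes, and beta-synuclein (Sncb) and gamma-synuclein (Sncg) are family members. PINK1 is a kinase that marks damaged mitochondria for removal by autophagy, DJ-1 (Park7) protects against oxidative stress, and FBXO7 is the substrate-binding part of an SCF ubiquitin ligase. UCHL1 is an abundant neuronal ubiquitin hydrolase. LRRK2 is a kinase of Rab proteins, VPS35 is the core of the retromer that returns cargo from endosomes, and ATP13A2 is a lysosomal polyamine transporter.

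Of the 9 genes, Uchl1, Park7, Pink1 and Sncb were higher in AAV-SIRT3 than in intact nigra, by 16.7% to 19.2%. The other 5 did not pass the test. Of all tested genes 21.7% passed in this comparison: 11.3% of all tested genes were higher and 10.3% were lower. No gene of the list passed the test between AAV-SIRT3 and AAV-GFP or between AAV-GFP and intact, where 0.113% and 1.84% of all tested genes did.

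The promoters of the 4 genes that rose are shown because these genes passed the same comparison in the same direction. Each sequence is the 250 bases before the RefSeq transcription start on the gene's strand, 5′ to 3′, in GRCm38.p6. RefSeq windows were found for 8 of the 9 genes, and Vps35 had no entry. A search for 8 motifs covered both strands. The motifs were the E-box CACGTG, the CLEAR element of lysosomal genes (which contains that E-box), the antioxidant response core TGACNNNGC, and the palindrome of nuclear respiratory factor NRF1. The others were the GC box GGGCGG, the TATA box TATAAA, the CCAAT box and the cAMP response element TGACGTCA. Capitals mark every match.
Sncb: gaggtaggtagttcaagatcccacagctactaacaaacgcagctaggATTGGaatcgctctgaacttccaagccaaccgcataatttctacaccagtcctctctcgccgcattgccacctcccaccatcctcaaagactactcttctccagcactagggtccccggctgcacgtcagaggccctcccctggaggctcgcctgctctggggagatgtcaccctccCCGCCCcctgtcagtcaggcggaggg
Uchl1: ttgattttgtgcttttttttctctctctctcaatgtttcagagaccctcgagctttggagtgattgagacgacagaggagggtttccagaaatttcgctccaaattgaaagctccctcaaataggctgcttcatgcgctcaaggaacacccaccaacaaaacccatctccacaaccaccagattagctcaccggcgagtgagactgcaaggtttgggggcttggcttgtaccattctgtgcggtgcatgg
Pink1: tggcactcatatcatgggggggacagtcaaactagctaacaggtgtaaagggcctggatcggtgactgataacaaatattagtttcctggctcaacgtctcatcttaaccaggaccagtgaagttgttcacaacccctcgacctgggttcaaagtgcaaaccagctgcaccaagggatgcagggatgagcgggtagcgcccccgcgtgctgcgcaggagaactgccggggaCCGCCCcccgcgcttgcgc
Park7: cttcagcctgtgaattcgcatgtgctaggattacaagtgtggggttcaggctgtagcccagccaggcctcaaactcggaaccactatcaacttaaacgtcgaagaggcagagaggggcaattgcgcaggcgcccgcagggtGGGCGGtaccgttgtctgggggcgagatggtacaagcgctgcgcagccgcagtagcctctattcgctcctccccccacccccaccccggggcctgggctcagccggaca
The Sncb window is chr13:54766596-54766845 on the minus strand and ends where the annotated gene begins. The Uchl1 window is chr5:66675871-66676120 on the plus strand. The Pink1 window is chr4:138326297-138326546 and the Park7 window is chr4:150909922-150910171, both on the minus strand. The Park7 window lies inside the GENCODE gene, which has a start site further upstream. A GC box was found in the windows of Sncb, Pink1 and Park7 but not in that of Uchl1, and the Sncb window also held a CCAAT box on the reverse strand. Over all 32851 promoters of the same length, 32.7% held a GC box and 33.8% held a CCAAT box. Windows of genes that did not pass the test held GC boxes too, in Sncg, Lrrk2 and Atp13a2. The other 6 motifs had no match in any of the windows of these genes, so no motif was common to the 4 promoters. A match describes letters in the window and is not evidence of binding.

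Values are the deposited reads per gene divided by a size factor per library, called normalised reads below. Depth ran from 47182529 to 64728587 reads per library, so counting error was below the spread between mice for all 9 genes. Sirt3 itself was at 1824 ± 66.3 normalised reads in the intact group (SD, n = 6). It was at 1775 ± 92.4 with the GFP virus and 1937 ± 79.4 with the SIRT3 virus. The difference of 0.13 on the log2 scale between AAV-SIRT3 and AAV-GFP did not pass the test (limma adjusted p = 0.183), and the groups overlapped. It does not check the labels firmly, since the species and sequence of the SIRT3 insert are not given in the sources used here. The defining markers of dopaminergic neurons were present in every group: taking the groups in the order intact, GFP virus and SIRT3 virus, Th was 5729 ± 761, 4711 ± 659 and 5756 ± 186, and Slc6a3 was 11062 ± 1456, 8168 ± 1086 and 10251 ± 1245 (SD, n = 6 each).

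Levels of genes are compared with one another per kb of exon, apart from the synuclein ratio below. In the intact nigra Uchl1 stood first, with 17352 ± 581 normalised reads per kb (SD, n = 6). Sncb followed with 7749 ± 775 and Pink1 with 6974 ± 330, and the ranges of these neighbours overlapped (6845 to 9144 against 6423 to 7345). Sncg, at 2356 ± 687, overlapped Park7, at 1744 ± 91.8. Below them came Atp13a2 at 1445 ± 67.9, Vps35 at 1156 ± 37.5, Fbxo7 at 593 ± 46.1 and Lrrk2 at 120 ± 11.7, with no overlap between neighbours from Park7 down. Lrrk2 transcripts were thus sparse in this tissue beside those of the other genes. The middle of this order depends on which transcripts are counted in the length. With the length of the principal transcript alone, Park7 (4615 per kb) and Vps35 (2961 per kb) stood above Sncg (2356 per kb) and Atp13a2 (2192 per kb), while the first 3 and the last 2 kept their places.

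**Figure D1:**
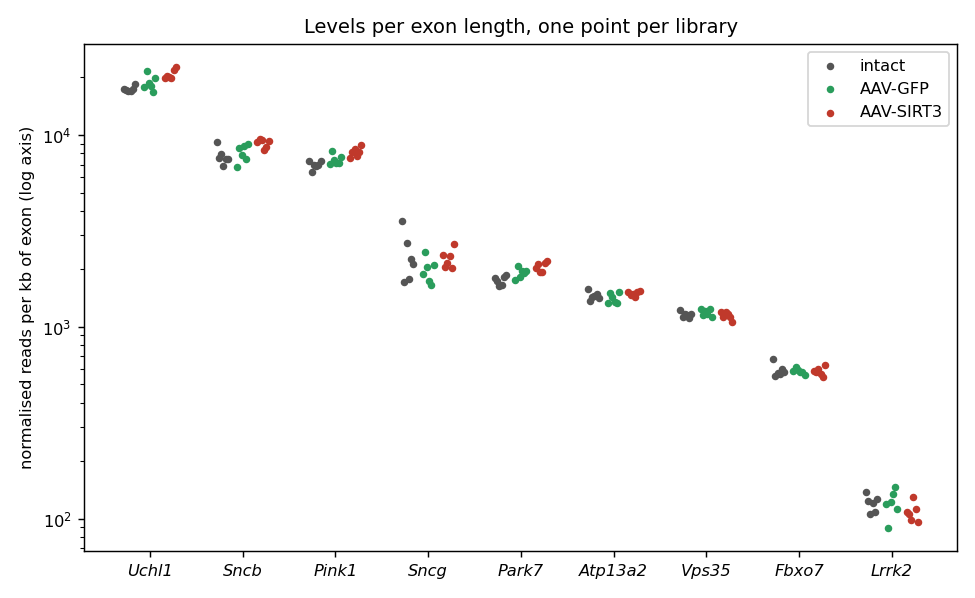
Normalised reads per kb of exon (log axis) for the 9 genes, with 1 point per library and colours for the 3 groups of 6. Uchl1 lies above all other genes in every library, and Lrrk2 lies below them; Sncb overlaps Pink1, and Sncg overlaps Park7.

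The comparison of AAV-SIRT3 with intact asks how the nigra with the SIRT3 virus differs from one that got no virus, so it holds the effect of the virus and the injection as well as that of SIRT3. Uchl1, Park7, Pink1 and Sncb rose, and none of the 9 fell. That is 4 of 9 (44.4%), where 21.7% of all tested genes passed the test. Of all tested genes 11.3% were higher and 10.3% were lower. With so few genes, the share of 44.4% is a description and is not a property of the list. The median log2 difference of the 9 genes was 0.05, beside -0.0049 over all tested genes.

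Beta-synuclein, which is found at presynaptic terminals, is encoded by Sncb (ENSMUSG00000034891.13, chr13:54758860-54766595, minus strand). Its level ran from 14682 through a median of 16156 to 19613 normalised reads in intact libraries. In AAV-GFP libraries it ran from 14638 through 17637 to 19285, and in AAV-SIRT3 libraries from 17781 through 19800 to 20368. The groups overlapped through intact replicate 1, the highest of its group; of 36 pairs made of an AAV-SIRT3 and an intact library, 34 had the higher value in AAV-SIRT3. Against intact the difference was 0.23 on the log2 scale (SE 0.0657, limma adjusted p = 0.0179), or 16.7% of the mean. This call was the closest to the threshold of the 4: without intact replicate 4 the adjusted p was 0.0498.

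Gamma-synuclein, Sncg (ENSMUSG00000023064.4, chr14:34370274-34374789, minus strand), showed the widest spread of the 9 genes in intact libraries, though not in AAV-GFP libraries, where Lrrk2 varied more. Intact libraries ran from 1463 through 1860 to 3015 normalised reads, a coefficient of variation of 29.2%. AAV-GFP libraries ran from 1409 through 1670 to 2093, and AAV-SIRT3 libraries from 1723 through 1908 to 2304. All 3 groups overlapped. The log2 differences were -0.02 for AAV-SIRT3 against intact (SE 0.135, limma adjusted p = 0.945), 0.20 for AAV-SIRT3 against AAV-GFP (adjusted p = 0.493) and -0.22 for AAV-GFP against intact (adjusted p = 0.399).

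The intact libraries with more Sncg also had more dopaminergic marker RNA and less thalamic marker RNA. Intact replicates 1, 3 and 5 held 3015, 2334 and 1917 normalised reads of Sncg. Their dopaminergic score, the mean log2(value + 1) of 17 markers, was 10.92, 10.86 and 10.85, and their thalamus score over 8 markers was 12.31, 12.38 and 12.43. In intact replicates 2, 4 and 6 Sncg was 1463, 1511 and 1803, with dopaminergic scores of 10.39, 10.50 and 10.59 and thalamus scores of 13.26, 12.94 and 13.18. The thalamus scores of the 12 virus libraries lay between 13.03 and 13.39. No pooled correlation is given, since the 3 intact libraries stand apart from the rest. With the thalamus score as a covariate the AAV-SIRT3 difference from intact became 0.34 (limma adjusted p = 0.0763), and with the dopaminergic score it became 0.08 (adjusted p = 0.602). Other markers differed too: cholinergic and motor neuron markers summed to 3183, 2495 and 1874 in intact replicates 1, 3 and 5. In replicates 2, 4 and 6 they summed to 1392, 1698 and 1695. Intact replicate 1 had a serotonergic sum of 9819 (other intact libraries 240 to 2225) and a hypothalamus sum of 576 (others 9187 to 14432). Which of these tissues goes with Sncg was not tested.

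**Figure D2:**
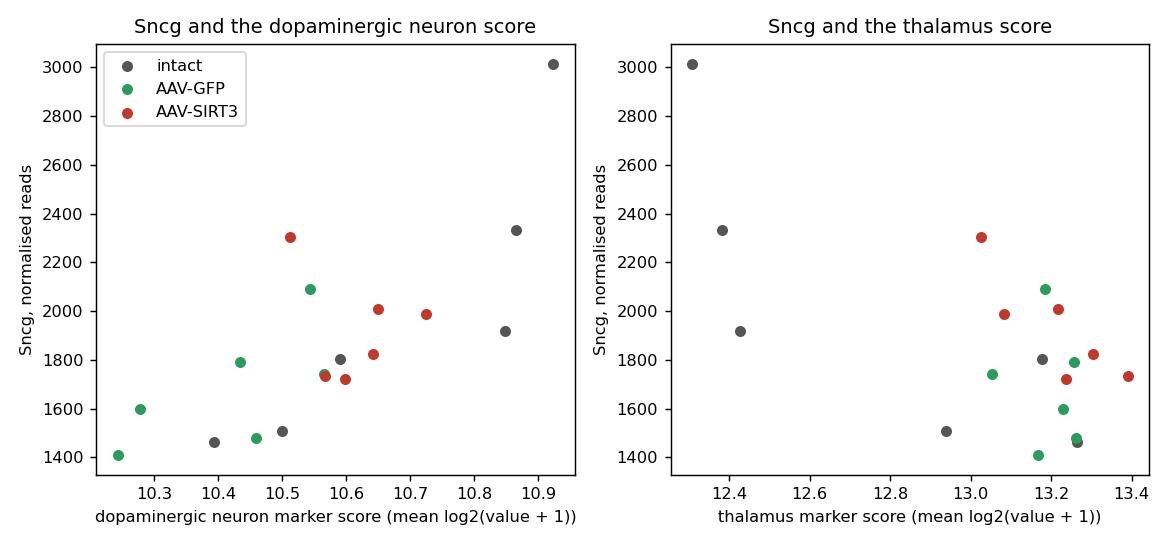
Sncg in normalised reads (vertical axis, not from 0) against the dopaminergic neuron score and the thalamus score, each the mean log2(value + 1) of its markers, with 1 point per library. Intact replicates 1, 3 and 5 lie apart, with thalamus scores of 12.31 to 12.43; Sncg in these libraries ran from 1917 to 3015.

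The ratio of the synucleins was also compared within libraries, where a common scale factor cancels. The ratio is of normalised reads with no correction for exon length, so it compares groups and does not give relative amounts of the transcripts. Per kb of exon the intact means were 2356 for Sncg and 7749 for Sncb. Uncorrected, Sncg was 11.9% ± 2.30 of Sncb in the intact nigra (SD, n = 6). With the GFP virus it was 9.75% ± 1.35 and with the SIRT3 virus 9.97% ± 1.24. In exact two-sided permutation tests of the log2 ratio, p was 0.0801 for AAV-GFP against intact, 0.0974 for AAV-SIRT3 against intact and 0.755 for AAV-SIRT3 against AAV-GFP. Adjusted over these 3 tests the values were 0.146, 0.146 and 0.755. Before adjustment, the exact test of 6 against 6 libraries could have reached 0.00216. The higher intact mean included the libraries with high dopaminergic scores named above.

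Uchl1 (ENSMUSG00000029223.12, chr5:66676091-66687234, plus strand) encodes the ubiquitin hydrolase that is among the most abundant proteins of neurons. It ran from 27468 through 28157 to 30094 normalised reads in intact libraries, from 27425 through 29770 to 34956 in AAV-GFP libraries and from 32330 through 32844 to 36826 in AAV-SIRT3 libraries. Every AAV-SIRT3 library was above every intact library. Uchl1 rose by 0.25 on the log2 scale (SE 0.0496, limma adjusted p = 0.00182), or 19.2% of the mean. The antisense gene Uchl1os shares 295 bp of exon with it and averaged 21.1 normalised reads.

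Pink1 (ENSMUSG00000028756.12, chr4:138313409-138326307, minus strand) starts mitophagy by phosphorylating ubiquitin on damaged mitochondria. Its level ran from 17169 through 18600 to 19633 normalised reads without virus, from 18900 through 19355 to 21948 with the GFP virus, and from 20351 through 21722 to 23553 with the SIRT3 virus. The intact and AAV-SIRT3 groups did not overlap. The rise was 0.22 on the log2 scale (SE 0.0446, limma adjusted p = 0.00195), or 16.8% of the mean. On the same strand, the miRNA gene Mir7019, listed at 0, shares 69 bp of its exons, and Gm27646, for which no value was used here, shares 110 bp.

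Park7 (ENSMUSG00000028964.14, chr4:150897133-150914437, minus strand) encodes DJ-1, a sensor of oxidative stress. It ran from 4047 through 4372 to 4596 normalised reads in the intact group, from 4316 through 4771 to 5127 in the GFP group and from 4751 through 5131 to 5425 in the SIRT3 group. Every AAV-SIRT3 library was again above every intact library. Park7 rose by 0.23 on the log2 scale (SE 0.0465, limma adjusted p = 0.00195), or 17.6% of the mean. The groups of Uchl1, Pink1 and Park7 thus separated in 36 of 36 pairs each, as did those of 9.33% of all tested genes in either direction and 5.01% in the higher direction.

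Fbxo7 (ENSMUSG00000001786.14, chr10:86021972-86051873, plus strand), the F-box protein that works with PINK1 in mitochondrial quality control, did not pass the test in any comparison. Its medians were 3571, 3607 and 3597 normalised reads in intact, AAV-GFP and AAV-SIRT3 libraries, over ranges of 3409 to 4202, 3442 to 3817 and 3385 to 3912. The log2 difference between AAV-SIRT3 and intact was -0.02, with a 95% confidence interval of -0.11 to 0.08. That interval lies below the rise of Uchl1. Fbxo7 shares 314 bp of exon with the antisense gene A230060F14Rik, which averaged 26.2 normalised reads.

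The genes of endosome and lysosome traffic did not pass the test in any comparison. Lrrk2 (ENSMUSG00000036273.15, chr15:91673175-91816120, plus strand) ran from 1245 through 1445 to 1618 normalised reads in the intact group, from 1058 through 1420 to 1731 in the GFP group and from 1134 through 1260 to 1528 in the SIRT3 group. The groups overlapped. AAV-SIRT3 differed from intact by -0.15 on the log2 scale (95% confidence interval -0.35 to 0.04, limma adjusted p = 0.262), and that interval includes both no change and a loss larger than the gains above.

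Vps35 (ENSMUSG00000031696.9, chr8:85260392-85299802, minus strand) had a median of 10297 normalised reads in the intact group, 10570 in the GFP group and 10177 in the SIRT3 group, over ranges of 9934 to 10825, 10035 to 10985 and 9445 to 10636. These ranges overlapped. The log2 difference between AAV-SIRT3 and intact was -0.02 (95% confidence interval -0.09 to 0.06, limma adjusted p = 0.747). Vps35 shares 171 bp of exon with Orc6 on the opposite strand, which averaged 1023 normalised reads. The strand setting of the authors' counting is not given in the sources used here, so reads of the shared stretch could belong to either gene.

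Atp13a2 (ENSMUSG00000036622.15, chr4:140986873-141007330, plus strand) had medians of 8589, 8301 and 8977 normalised reads in intact, AAV-GFP and AAV-SIRT3 libraries, over ranges of 8178 to 9378, 7956 to 9071 and 8595 to 9241. AAV-SIRT3 differed from intact by 0.05 on the log2 scale (95% confidence interval -0.04 to 0.13, limma adjusted p = 0.436). The groups overlapped.

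**Figure D3:**
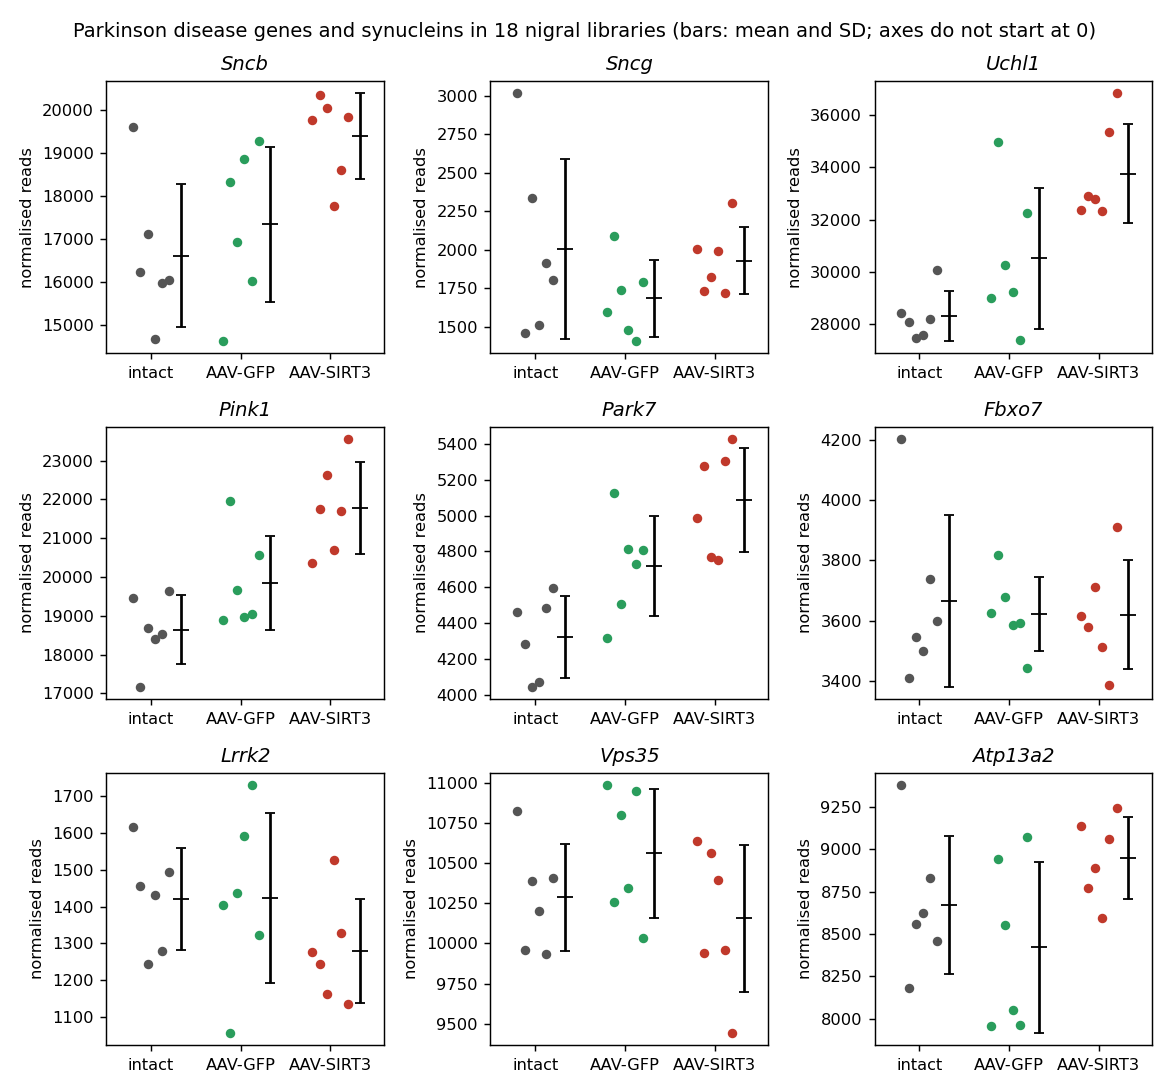
Normalised reads of each of the 9 genes by group, with 1 point per library and the mean and SD of 6 libraries as bars; the axes do not start at 0. AAV-SIRT3 libraries lie above all intact libraries for Uchl1, Pink1 and Park7, while AAV-GFP libraries overlap both groups.

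Setting AAV-SIRT3 against AAV-GFP compares mice that all got an AAV, carrying SIRT3 or GFP. AAV-GFP against intact asks what the virus, the injection and GFP do together, without SIRT3. Any effect of GFP enters both of these comparisons. These comparisons share the AAV-GFP libraries, and both share libraries with the comparison above, so their values are given side by side and not as separate evidence. Between AAV-SIRT3 and AAV-GFP, 0 of the 9 genes passed the limma test, where 0.113% of all tested genes did. In none of the 9 did these groups separate fully, which 0.751% of all tested genes did. edgeR and DESeq2 also called 0. At an unadjusted p under 0.05 the count was 5 of 9, beside 15.2% of all tested genes, and these were Sncb, Uchl1, Pink1, Park7 and Atp13a2, all with higher means in AAV-SIRT3. Between AAV-GFP and intact, 0 of the 9 passed in limma, edgeR or DESeq2, where 1.84% of all tested genes passed in limma. None of the 9 separated these groups fully, beside 1.86% of all tested genes. Park7 and Uchl1 had an unadjusted p under 0.05 there, 2 of 9, beside 19.1% of all tested genes.

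The 4 genes that were higher in AAV-SIRT3 than in intact had AAV-GFP means between the means of the other groups. For Uchl1 the log2 difference was 0.10 for AAV-GFP against intact (SE 0.0496, limma adjusted p = 0.255) and 0.15 for AAV-SIRT3 against AAV-GFP (adjusted p = 0.184). For Pink1 the same differences were 0.09 (SE 0.0446, adjusted p = 0.278) and 0.13 (adjusted p = 0.181). Park7 gave 0.13 (SE 0.0465, adjusted p = 0.143) and 0.11 (adjusted p = 0.280), and Sncb gave 0.06 (SE 0.0657, adjusted p = 0.662) and 0.17 (adjusted p = 0.242). Dopaminergic markers were lower in AAV-GFP than in intact: 4 of 17 fell and 0 rose, with sums of 54565 to 66516 against 61940 to 79460 normalised reads. With the dopaminergic score as a covariate these Sncb differences became 0.17 and 0.08, in the same order (limma adjusted p = 0.314 and 0.659). How much of the AAV-SIRT3 difference from intact comes with the virus and injection and how much with SIRT3 was therefore not resolved. The AAV-GFP group cannot separate them fully, since it also overexpresses GFP. AAV-GFP replicate 2 had the highest Uchl1, Pink1 and Park7 of its group. Without that library, Uchl1 (0.19, adjusted p = 0.0235) and Pink1 (0.16, adjusted p = 0.0329) passed the test between AAV-SIRT3 and AAV-GFP, and the count over all genes went from 22 to 861.

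**Figure D4:**
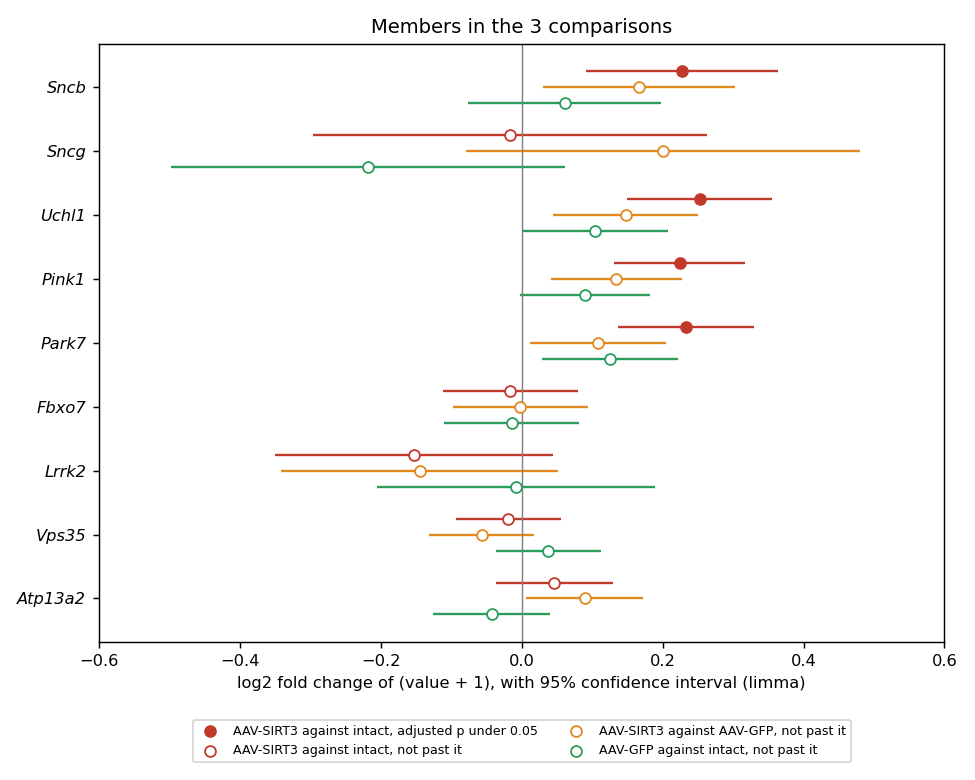
Log2 differences of (value + 1) with 95% confidence intervals from limma for the 9 genes in the 3 comparisons; filled points passed an adjusted p of 0.05. The filled points are Sncb, Uchl1, Pink1 and Park7 for AAV-SIRT3 against intact, at 0.22 to 0.25, and the same genes lie to the right of 0 in the other comparisons with open points.

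The 4 genes that rose have short transcripts, from 1632 to 2673 bp of exon, and the difference between AAV-SIRT3 and intact varied with exon length over all genes. Genes were put in 10 classes of near-equal size by length. In the class from 1189 to 1883 bp, which holds Uchl1, 20% were higher and 4.79% lower. In the class of Sncb and Park7 16.8% were higher, and in that of Pink1 17.2%. In the longest class, which holds Lrrk2, 2.5% were higher and 34.1% lower. The median log2 difference went from 0.09 in the class of Uchl1 to -0.12 in that of Lrrk2, so the value for Lrrk2 of -0.15 lay near the median of genes of its length.

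The length trend also varied between single libraries. The Spearman correlation of a library's deviation from the mean of all libraries with exon length, taken across genes, was 0.06 to 0.17 in intact libraries, -0.30 to 0.11 in AAV-GFP libraries and -0.29 to -0.02 in AAV-SIRT3 libraries. Genes are not independent replicates in these correlations. AAV-GFP replicate 2 had the lowest value of its group, and also the lowest Lrrk2. AAV-SIRT3 replicate 6 had the lowest of its group, with the highest Uchl1, Pink1 and Park7 and the lowest Lrrk2 and Vps35. With trends on exon length and GC content taken out of each library, Uchl1 (0.22), Park7 (0.22), Pink1 (0.19) and Sncb (0.19, limma adjusted p = 0.0399) stayed past the threshold. Vps35 has 8899 bp of joined exon, though 3474 bp in its principal transcript. It moved from -0.02 to 0.14 and then passed the threshold (limma adjusted p = 0.0156). Its place among the genes that did not pass thus depends on these trends, which were taken out together. Lrrk2 moved to -0.03 (adjusted p = 0.842). Over all genes this correction moved the AAV-SIRT3 calls against intact from 2206 higher and 2008 lower to 3301 and 1215. The calls against AAV-GFP went from 7 and 15 to 161 and 42, and those of AAV-GFP against intact from 160 and 198 to 279 and 160.

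**Figure D5:**
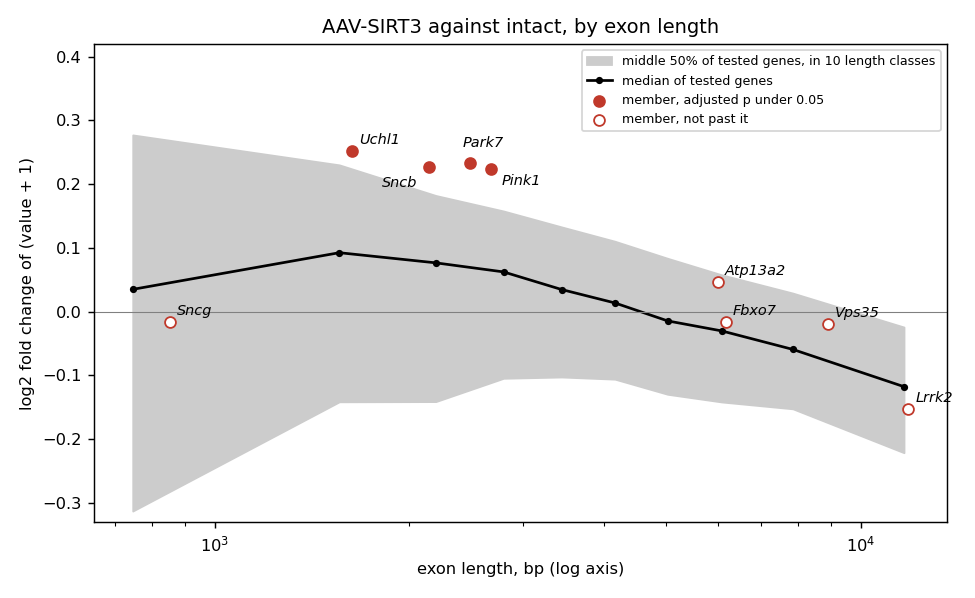
Log2 difference of (value + 1) between AAV-SIRT3 and intact (vertical axis) against exon length in bp (log axis), with the median and the middle 50% of tested genes in each of 10 length classes, and the 9 genes as points. Uchl1, Park7, Pink1 and Sncb lie above the grey band of their length. Lrrk2, the longest of the 9, and Sncg, the shortest, lie within the band of their length.

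Markers of other cells moved with the groups as well. Between AAV-SIRT3 and intact, 7 of 11 microglial markers rose and 0 fell, and their summed level ran from 21283 to 23721 normalised reads in intact and from 24079 to 28586 in AAV-SIRT3 libraries. Of 8 thalamus markers 6 rose, with sums of 56041 to 99901 in intact and 83093 to 105455 in AAV-SIRT3. Of 10 pan-neuronal markers 2 rose (Stmn2 and Tubb3) and 1 fell (Map2), with sums of 387594 to 449473 and 393107 to 436724. Of 17 dopaminergic markers 0 rose and 1 (Sox6) fell, with sums of 61940 to 79460 and 60763 to 72153. None of these markers was at 0 in any library. Of 5 anterior pituitary markers 4 fell, and of 5 endothelial markers 3 fell. The values of the 4 genes that rose stayed past the threshold with the thalamus, pan-neuronal or dopaminergic score as a covariate: Uchl1 ran from 0.24 to 0.26, Park7 from 0.23 to 0.24, Pink1 from 0.21 to 0.25 and Sncb from 0.19 to 0.29. Within groups Uchl1 and Park7 hardly followed these 3 scores (r of 0.05 to 0.15), so the covariates could move their values little. Uchl1 followed the astrocyte score more closely (r = -0.70), and Pink1 the oligodendrocyte score (0.52). Sncb followed the oligodendrocyte and the pan-neuronal score alike (0.56 each). The astrocyte and oligodendrocyte scores were not used as covariates. The part of astrocytes, oligodendrocytes, microglia, pituitary and endothelium in these results was not tested. In bulk tissue, more cells of a type and more RNA per cell cannot be told apart.

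The wider routes around these genes were read from lists of partners. The lists were not matched for exon length, with which the shares of genes called varied, as given above. Of 32 genes of mitophagy and mitochondrial quality control, 13 rose and 1 fell between AAV-SIRT3 and intact. Of all tested genes 11.3% rose and 10.3% fell there. The median log2 difference of this list was 0.08. The 3 with the smallest adjusted p were Map1lc3a, which coats autophagosomes (0.31, SE 0.0580, limma adjusted p = 0.00135), Tomm40, the pore of the mitochondrial outer membrane (0.25), and Gabarap, an LC3 relative (0.32). Optn, an autophagy receptor and the 1 that fell (-0.16, adjusted p = 0.0405), is named after its value was seen. Between AAV-SIRT3 and AAV-GFP 0 of the 32 passed in limma and edgeR and 2 in DESeq2, where limma called 0.113% of all tested genes. At an unadjusted p under 0.05 there were 11, beside 15.2% of all tested genes. Between AAV-GFP and intact 0 passed in the 3 tools, where limma called 1.84% of all tested genes. At that unadjusted p there were 6, beside 19.1% of all tested genes. The partners of Uchl1 and Fbxo7 were 11 tested ubiquitin hydrolases and SCF ligase genes. Between AAV-SIRT3 and intact 5 of them rose and 0 fell, beside 11.3% and 10.3% of all tested genes. The 5 were led by Nedd8, the modifier that activates cullins (0.30), Rbx1, the RING subunit of SCF ligases (0.17), and Uchl5, a proteasome-bound hydrolase (0.21).

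The partners of Vps35 and Lrrk2 moved in both directions. Of 30 retromer, WASH complex and Rab genes, 8 rose and 3 fell. Rab3a, a synaptic vesicle Rab, rose by 0.21 and Snx3, a retromer sorting nexin, by 0.15, while Washc4 of the WASH complex fell by 0.21 on the log2 scale. Of 16 P5-type ATPases and lysosomal genes 3 rose and 2 fell, and the latter were Atp13a3 (-0.23) and Atp13a5 (-0.32), relatives of Atp13a2. The other relatives on the list, Atp13a1 and Atp13a4, were not among those that fell. Of 14 presynaptic genes 3 rose, namely Rab3a, Vamp2 (0.20) and Syp (0.12), and 0 fell. DESeq2 called 6 of the 14. Between AAV-SIRT3 and intact, limma called 21.7% of all tested genes and DESeq2 called 4616 of the 19443. Rab3a belongs to both the Rab and the presynaptic list. In the other comparisons, limma called 1 gene over the lists of ubiquitin, retromer, lysosomal and presynaptic partners, Ctsd (0.27 higher in AAV-GFP than in intact). DESeq2 called 1 presynaptic gene between AAV-SIRT3 and AAV-GFP, and 1 ubiquitin and 1 retromer gene between AAV-GFP and intact, where edgeR called 0. At an unadjusted p under 0.05 the counts between AAV-SIRT3 and AAV-GFP were 5 of 11 ubiquitin, 5 of 30 retromer, 2 of 16 lysosomal and 3 of 14 presynaptic genes. Between AAV-GFP and intact they were 2, 6, 3 and 5. The shares of all tested genes at that p were 15.2% and 19.1%, in the same order of comparisons.

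Of 18 other genes reported for Parkinson disease or parkinsonism, 1 rose and 4 fell between AAV-SIRT3 and intact, a share close to the 21.7% of all tested genes. Chchd2, a small mitochondrial protein, rose by 0.32, and Vps13c, a lipid transfer protein (-0.39), and Eif4g1, a translation initiation factor (-0.15), fell. In the other comparisons 1 gene of this list, Gpnmb, passed in both: it was 1.97 higher in AAV-GFP than in intact and -2.08 in AAV-SIRT3 against AAV-GFP, with means of 114, 489 and 108 normalised reads in intact, AAV-GFP and AAV-SIRT3. These differences share the AAV-GFP libraries. DESeq2 called 2 genes of the list between AAV-SIRT3 and AAV-GFP and 3 between AAV-GFP and intact. The counts at an unadjusted p under 0.05 were 5 and 6, beside 15.2% and 19.1% of all tested genes. Slc6a3, the dopamine transporter, was -0.44 in AAV-GFP against intact (limma adjusted p = 0.0263), and it is also a dopaminergic marker.

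Within groups, the 9 genes fell into different company. Likeness was measured as the Pearson correlation of log2 values after taking off group means, over 18 libraries and 15244 candidate genes, and it is a description, since all genes of a library share its depth, tissue content and length trend. The libraries include intact replicates 1, 3 and 5, which stand apart. Pink1 and Uchl1 varied together (r = 0.78, Spearman 0.75), as did Park7 and Uchl1 (r = 0.68, Spearman 0.77). Genes that did not pass the test did so too: Sncg with Fbxo7 (r = 0.76, Spearman 0.54) and with Atp13a2 (r = 0.72, Spearman 0.72). Sncb, which rose, followed Atp13a2 (r = 0.63) more closely than Park7 (0.49), Pink1 (0.45) or Uchl1 (0.35). The genes most like Sncb were Akt1, Atp6v1g2 and Vegfb, and those most like Sncg were Erfl, Gch1 and Iscu. Uchl1 was most like Slc35c2, Rhbdd3 and Psmc1, Pink1 like Rrp1, Ruvbl1 and Cops6, and Park7 like Arl3, Cox6c and Ndufa1. Lrrk2 was most like Sik2, Slmap and Diaph2, Vps35 like C230034O21Rik, Rdx and Chrna7, Atp13a2 like Syt3, Tecr and Sh3glb2, and Fbxo7 like Mab21l2, Lamp5 and Slc6a5. These r values ran from 0.86 (Chrna7) to 0.92 (Slc35c2). Gch1 makes the cofactor of tyrosine hydroxylase and is one of the dopaminergic markers used above.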

How the data were processed

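Poly-A RNA of 18 substantia nigra samples was made into stranded libraries and read in pairs of 100 bp, per the labels' protocols. Values were deposited as a signal for each gene: per the name of the deposited table, HTSeq read counts that the authors normalised with DESeq2. The submitters' processing notes name HISAT2 2.1.0, DESeq2 1.34.0 and mm10. The annotation, strand setting and filters are not given in the sources used here. Multiplying by 1 size factor per library gave whole reads for 100% of values (within 0.01 reads); for 2 libraries the factor is within 1% of 1, which makes the proof weaker there. All pairs of replicates differed beyond sampling noise (chi-square per degree of freedom 7.75 to 33.5).

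Values were tested as log2(value + 1) with limma 3.58.1 in R 4.3.3, in 1 model of 3 groups whose prior variance followed a trend on the mean level. The 19443 genes tested reached 10 or more in 6 or more libraries. Fold changes on this scale understate those of low genes. Benjamini-Hochberg adjustment ran over all tested genes at 0.05. Percent changes are of group means. Recovered reads were tested with edgeR 4.0.16 and DESeq2 1.42.0 as alternatives, beside other scalings, pseudocounts, filters, covariates, a block on the replicate number and leaving out each library.

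The 9 genes, the partner and marker lists and the tests were chosen with earlier results of these data known. Of each list, counts are given, and up to 3 genes with the smallest adjusted p past the threshold are named. The 3 genes most like each of the 9 are named, among tested genes with a mean of at least 50. Coordinates, lengths and overlaps are from GENCODE M21 (GRCm38), which matched 49093 of 55270 symbols, and promoters from RefSeq (GRCm38.p6). Each mouse is a replicate, per the labels' design. Intervals cover limma's model error.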

Additional observations from a re-analysis of the deposited data

How the results depend on the processing

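For the 9 genes in 3 comparisons, 33 alternatives gave 891 values, of which 847 kept their direction and side of the threshold, 2 newly passed with the same sign and 42 changed sign, in 10 of 27 results; 1 of the 42, Vps35 in AAV-SIRT3 against intact without the length and GC trends, also passed. The 4 rises against intact kept both under all 33. Leaving out 1 library gave 0 to 2 of the 9 past the threshold between AAV-SIRT3 and AAV-GFP, 2 without AAV-GFP replicate 2. The values that changed sign were all ones that had not passed in the reported test. For Sncg, AAV-SIRT3 against AAV-GFP became -0.057 with the dopaminergic score, AAV-GFP against intact 0.12 with the thalamus and 0.13 with the dopaminergic score, and AAV-SIRT3 against intact 0.0522 with array weights, 0.34 with the thalamus and 0.0778 with the dopaminergic score, and -0.10 to 0.11 without 1 library. For Fbxo7, AAV-SIRT3 against AAV-GFP became 0.00082 with the thalamus score and 0.0423 without the length and GC trends (-0.025 to 0.0168 without 1 library), AAV-GFP against intact 0.0016 with array weights, 0.0638 with the thalamus score, 0.0513 with the dopaminergic score and 0.00665 without the trends (-0.0341 to 0.0262), and AAV-SIRT3 against intact 0.0646, 0.0013 and 0.0489 with thalamus score, dopaminergic score and trend removal (-0.0389 to 0.024). For Lrrk2, AAV-GFP against intact became 0.0546 with array weights, 0.0562 without the trends and 0.0028 in DESeq2 (-0.0674 to 0.0746). For Atp13a2, AAV-GFP against intact became 0.00865 with the thalamus and 0.0215 with the dopaminergic score. For Vps35, AAV-SIRT3 against AAV-GFP became 0.0325 without the trends, and AAV-SIRT3 against intact 0.0017 with array weights and 0.14 without the trends (-0.0324 to 0.0018). Over all genes, calls between AAV-SIRT3 and AAV-GFP went from 22 to 8 with only these groups, 13 with a replicate block, 121 with array weights, 3 with the dopaminergic score, 203 without the trends and 310 in DESeq2 (5 to 861 without 1 library). Between AAV-GFP and intact they went from 358 to 164 with all genes above 0, 199 with only these groups, 638 with array weights, 35 with the thalamus and 3 with the dopaminergic score and 1008 in DESeq2 (129 to 686). Between AAV-SIRT3 and intact they went from 4214 to 1820 with the thalamus score (3279 to 4633). The causes were not tested. Replicate numbers did not pair the libraries: of 18 same-number correlations of deviations, -0.10 to 0.18, 1 was over 0.1, and 1 library matched its own number best. The replicate block changed no call among the 9 genes. Depth did not limit these genes; the spread between 6 mice did. The groups differed in markers of neighbouring tissue, so tissue content and group cannot be told apart, and RNA levels say nothing of protein.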
